A study of Mus musculus with 2 samples.

Results

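The receptors described here are the chains that bind interferons, the cytokines of the IL-10 family and IL-6. The 10 genes Ifnar1, Ifnar2, Ifngr1, Ifngr2, Ifnlr1, Il10ra, Il10rb, Il22ra1, Il6st and Il6ra were taken by symbol from 22350 gene symbols, and all 10 had 1 entry in each library. Their messenger RNA was measured in colon epithelial cells of C57BL/6 mice, in 1 library from Pkm2-/- mice and 1 from wild type mice, both after 3 days of 2.5% dextran sulfate sodium (DSS). DSS, given to mice by mouth, is a sulfated polymer that damages the epithelium of the colon, and Pkm2 is an isoform of the pyruvate kinase that Pkm encodes. The sources used here do not say how the Pkm2-/- allele was made, how old the mice were or how many entered a library, and neither group was free of DSS. With 1 library per genotype no difference could be tested, so every comparison describes these 2 libraries.

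Receptors of this class work as pairs of chains. A ligand brings a ligand-binding chain together with an accessory chain, the Janus kinases bound to their inner ends phosphorylate both, and STAT transcription factors dock there and move to the nucleus. Interferon-gamma uses IFNGR1 with IFNGR2, type I interferons use IFNAR1 with IFNAR2 and act through a complex that holds STAT2 and IRF9, and interferon-lambda uses IFNLR1 with IL10RB for the same complex. IL10RB is also the accessory chain for IL-10 and IL-22, which act mainly through STAT3, as does IL-6 through the shared chain gp130, encoded by Il6st. In gut epithelium, interferon-lambda and IL-22 act largely on the epithelial cells themselves, whereas the IL-10 receptor is best known from leukocytes.

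Values are FPKM, fragment counts corrected for transcript length and sequencing depth, which allow levels of different genes to be set side by side. The files listed 20604 genes in the Pkm2-/- library and 20793 in the wild type library, and the steps between their lowest values corresponded to about 20300000 and 18700000 fragments. All 12 epithelial markers were listed in both, with summed levels of 8687 FPKM in the Pkm2-/- library and 8144 FPKM in the wild type library. Pkm, the targeted gene, stood at 86.2 FPKM in the Pkm2-/- library and 281 FPKM in the wild type library, 3.26-fold lower (95% counting interval 3.15 to 3.38), a value that covers both of its isoforms. Counting intervals rest on this estimated depth, cover counting error only and say nothing about differences between mice or preparations.

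The receptors stood close together in the libraries. On the scale log2(FPKM + 1), 8 of the 10 had a mean of at least 1 FPKM, and 0 of these 8 were at least 2-fold apart, against 3.31% of the 12429 genes with such a mean. None of the 8 was 1.5-fold apart either, against 9.75% of all these genes. Their log2 ratios of Pkm2-/- over wild type ran from -0.31 to 0.43, with 3 above 0 and a median of -0.14, whereas 58.8% of all these genes were above 0 and their median was 0.06. The median size of the difference, whatever its sign, was 0.21 for the 8 receptors and 0.20 for all genes, so the receptors lay about where most genes lay. The members that did not reach the mean of 1 FPKM were Il10ra and Il6ra. The order of the levels was nearly the same in both libraries: Ifngr1 was the most abundant, followed by Il10rb, Ifngr2, Ifnar1, Il22ra1 and Il6st. Ifnar2 ranked above Ifnlr1 in the Pkm2-/- library and below it in the wild type library, and Il10ra ranked above Il6ra in the Pkm2-/- library and below it in the wild type library. Among neighbours in this order, the counting intervals of Il22ra1 and Il6st and of Il6st and Ifnar2 overlapped in the Pkm2-/- library, and those of Ifnlr1 and Ifnar2 and of Il6ra and Il10ra in the wild type library.

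**Figure D1:**
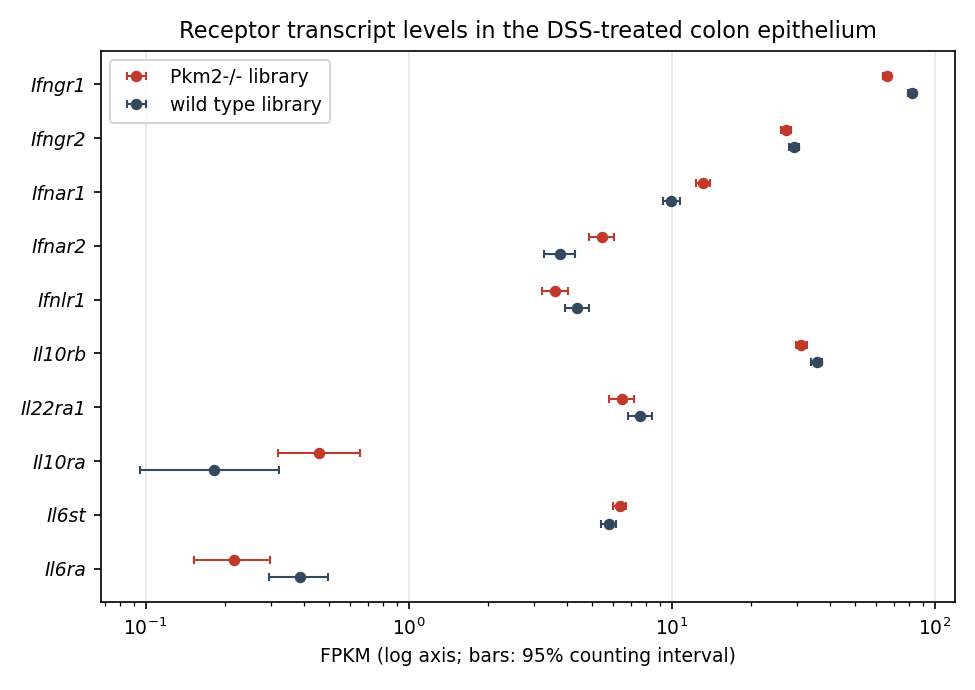
Level of each receptor in the Pkm2-/- library and in the wild type library, in FPKM on a log axis, with bars for the 95% counting interval. Ifngr1 is highest in both, at 65.8 FPKM in the Pkm2-/- library and 82.0 FPKM in the wild type library, and Il10ra and Il6ra are the only members below 1 FPKM.

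The interferon-gamma receptor had the most transcript of the receptors. Ifngr1, its ligand-binding chain (ENSMUSG00000020009, chromosome 10, 19591949 to 19610229 of build GRCm38), was measured at 65.8 FPKM in the Pkm2-/- library and 82.0 FPKM in the wild type library, 1.25-fold lower (95% counting interval 1.18 to 1.31). It lay above 94.7% of listed genes in the Pkm2-/- library and above 96.0% in the wild type library. Ifngr2, the accessory chain (ENSMUSG00000022965, chromosome 16, 91547072 to 91565623), stood at 27.3 FPKM in the Pkm2-/- library and 29.1 FPKM in the wild type library, 1.07-fold lower (95% counting interval 1.004 to 1.14). Ifngr1 thus had the largest negative log2 ratio of the 8 receptors above the filter, -0.31, and Ifngr2 the smallest difference of them, -0.09.

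Both chains of the type I interferon receptor were higher in the Pkm2-/- library. Ifnar1 (ENSMUSG00000022967, chromosome 16, 91485238 to 91507441) stood at 13.2 FPKM in the Pkm2-/- library and 9.98 FPKM in the wild type library, 1.32-fold higher (95% counting interval 1.20 to 1.46). Ifnar2, the chain with the higher affinity for ligand (ENSMUSG00000022971, chromosome 16, 91372783 to 91405589), stood at 5.41 FPKM in the Pkm2-/- library and 3.76 FPKM in the wild type library, 1.44-fold higher (95% counting interval 1.21 to 1.72). These were the largest positive log2 ratios of the 8 receptors above the filter, at 0.37 and 0.43. The files give Ifnar2, Il10rb and Gm21970, which GENCODE M21 places across both on the same strand, 1 shared locus, so the split of fragments among these 3 entries is uncertain. Gm21970 itself was low, at 0.260 FPKM in the Pkm2-/- library and 0.152 FPKM in the wild type library.

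Promoters of the type I receptor chains are shown because both chains were higher, with the promoter of Ifngr1 as a receptor that was lower, and those of Irf1 and Isg15, targets of interferon-gamma and of type I interferon, as examples of the motifs. The sequences are RefSeq promoters on GRCm38.p6, 250 bases before to 50 after the annotated start, written 5′ to 3′, and capitals mark matches to TTCNNNGAA, the form of the interferon-gamma-activated site (GAS), or to GAAA, NN and GAAA in a row, the core of the interferon-stimulated response element (ISRE).
Ifnar1 (chr16:91484965-91485264, plus strand): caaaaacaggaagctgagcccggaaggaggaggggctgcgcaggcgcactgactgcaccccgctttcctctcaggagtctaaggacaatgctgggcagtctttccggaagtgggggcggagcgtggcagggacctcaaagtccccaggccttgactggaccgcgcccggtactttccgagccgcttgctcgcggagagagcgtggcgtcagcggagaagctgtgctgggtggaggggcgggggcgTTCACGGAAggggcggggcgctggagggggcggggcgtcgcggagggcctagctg
Ifnar2 (chr16:91372533-91372832, plus strand): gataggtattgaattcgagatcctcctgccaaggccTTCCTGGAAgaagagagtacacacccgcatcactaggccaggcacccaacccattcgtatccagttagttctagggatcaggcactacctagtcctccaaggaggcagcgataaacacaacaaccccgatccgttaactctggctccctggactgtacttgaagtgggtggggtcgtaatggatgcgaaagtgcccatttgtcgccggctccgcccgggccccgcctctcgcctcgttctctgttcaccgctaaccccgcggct
Ifngr1 (chr10:19591699-19591998, plus strand): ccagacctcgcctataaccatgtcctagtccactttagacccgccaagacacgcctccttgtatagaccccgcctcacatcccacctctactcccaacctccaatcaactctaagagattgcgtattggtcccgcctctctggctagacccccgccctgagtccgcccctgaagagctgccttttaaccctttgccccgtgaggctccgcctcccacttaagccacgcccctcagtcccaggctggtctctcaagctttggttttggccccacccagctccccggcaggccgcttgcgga
Irf1 (chr11:53769764-53770063, plus strand): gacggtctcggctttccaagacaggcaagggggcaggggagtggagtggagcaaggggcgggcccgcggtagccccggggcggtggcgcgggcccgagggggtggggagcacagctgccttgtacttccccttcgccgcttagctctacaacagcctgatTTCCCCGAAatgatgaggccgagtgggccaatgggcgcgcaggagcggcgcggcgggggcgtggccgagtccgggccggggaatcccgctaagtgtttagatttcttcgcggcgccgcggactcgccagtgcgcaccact
Isg15 (chr4:156200769-156201068, minus strand): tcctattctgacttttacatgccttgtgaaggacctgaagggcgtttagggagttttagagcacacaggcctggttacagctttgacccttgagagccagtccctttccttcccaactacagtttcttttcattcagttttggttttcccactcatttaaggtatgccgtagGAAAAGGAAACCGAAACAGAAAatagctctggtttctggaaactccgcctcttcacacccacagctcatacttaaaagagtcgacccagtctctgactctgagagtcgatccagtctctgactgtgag

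GAS letters read the same on both strands, ISRE letters were searched on both, and no match of one overlapped a match of the other in these 5 windows. Ifnar1 had 1 GAS match whose first base lay at -5 from the RefSeq start, and Ifnar2 had 1 at -214. Irf1 had 1 at -90, and Isg15 had 3 overlapping ISRE matches with first bases at -78, -72 and -66. Of the 8 receptors with a promoter in the table, which were all but Il10ra and Il10rb, 2 held a GAS match, against 9.55% of 27025 genes, and 0 held an ISRE match, against 3.99%. Among interferon-gamma-induced genes, 6 of the 13 with a promoter held a GAS match and 7 an ISRE match, and among genes induced by type I and III interferon 2 of 15 held a GAS match and 9 an ISRE match. The receptor promoters were rich in G and C, with a median of 65.0% against 52.7% over all promoters, and their median observed over expected CpG was 0.761 against 0.384. The GC box letters GGGCGG, a motif added after the values were seen, occurred in 7 of the 8, against 38.2% of all genes, and Il6ra was the exception. A match describes letters in a window, and its part in the levels was not tested.

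The interferon-lambda receptor and the IL-22 receptor are encoded side by side and had similar ratios. Ifnlr1, the chain specific to interferon-lambda (ENSMUSG00000062157, chromosome 4, 135686287 to 135708181), stood at 3.61 FPKM in the Pkm2-/- library and 4.38 FPKM in the wild type library, 1.21-fold lower (95% counting interval 1.04 to 1.42). Il22ra1, the chain that binds IL-22 (ENSMUSG00000037157, chromosome 4, 135728172 to 135752140), stood at 6.45 FPKM in the Pkm2-/- library and 7.56 FPKM in the wild type library, 1.17-fold lower (95% counting interval 1.01 to 1.37). Their shared partner Il10rb (ENSMUSG00000022969, chromosome 16, 91406164 to 91425834) stood at 31.2 FPKM in the Pkm2-/- library and 35.6 FPKM in the wild type library, 1.14-fold lower (95% counting interval 1.07 to 1.22). All 3 chains were thus slightly lower in the Pkm2-/- library. Il22ra2, which encodes a soluble decoy for IL-22 and was chosen after its values were seen, was at 0.266 FPKM in the Pkm2-/- library and 0.367 FPKM in the wild type library.

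Il10ra, the ligand-binding chain of the IL-10 receptor (ENSMUSG00000032089, chromosome 9, 45253837 to 45269149), was the only member at least 2-fold apart on the plain ratio. It stood at 0.458 FPKM in the Pkm2-/- library and 0.182 FPKM in the wild type library, about 33 and 12 fragments, which is 2.51-fold higher with a wide 95% counting interval of 1.27 to 5.38. Of the 1871 genes listed in both libraries with a mean from 0.2 to below 0.5 FPKM, 32.8% were at least 2-fold apart. They were matched by FPKM and not by number of fragments, so how usual the difference of Il10ra is cannot be said. On the log2(FPKM + 1) scale its ratio was 0.30. Il10ra lies on the chromosome that also carries Pkm, 14.4 Mb from it.

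Summed markers of T cells, of macrophages and dendritic cells, and of B and plasma cells were higher in the same library as Il10ra, and those of neutrophils were lower. The 12 T cell markers, all listed in both libraries, summed to 114 FPKM in the Pkm2-/- library and 29.0 FPKM in the wild type library, and all 12 were higher. The 12 macrophage and dendritic cell markers summed to 18.3 FPKM in the Pkm2-/- library and 9.93 FPKM in the wild type library, and 10 of them were higher. The 10 B and plasma cell markers summed to 34.9 FPKM in the Pkm2-/- library and 10.1 FPKM in the wild type library, with 9 higher and Mzb1 listed in the Pkm2-/- library alone. The 4 neutrophil markers with an entry, of 9, summed to 13.3 FPKM in the Pkm2-/- library and 25.5 FPKM in the wild type library, nearly all of it Ly6g. Of these 4, 2 were higher in the Pkm2-/- library, so the lower sum rests on Ly6g. The part of these cells in the level of Il10ra was not tested, and in bulk RNA fewer cells of a type and less RNA per cell cannot be told apart.

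Of the 2 chains of the IL-6 receptor, Il6st was well above Il6ra. Il6st, which encodes gp130 (ENSMUSG00000021756, chromosome 13, 112464070 to 112510086), stood at 6.35 FPKM in the Pkm2-/- library and 5.77 FPKM in the wild type library, 1.10-fold higher (95% counting interval 1.01 to 1.20). Il6ra, the IL-6-binding chain (ENSMUSG00000027947, chromosome 3, 89864059 to 89913196), stood at 0.216 FPKM in the Pkm2-/- library and 0.386 FPKM in the wild type library, about 38 and 62 fragments, which is 1.78-fold lower (95% counting interval 1.17 to 2.73). Of genes listed in both libraries with a mean from 0.2 to below 0.5 FPKM, 55.2% were at least 1.5-fold apart and 32.8% at least 2-fold. The fold of Il6ra lies between these thresholds. Those genes were matched by FPKM and not by number of fragments, so how usual this difference is cannot be said. GENCODE M21 places Gm42809 across Il6ra and Gm20612 across Il10ra on the opposite strand, and strand use is not given in the sources used here, though neither had an entry in the files. Among other chains that pair with gp130, Il11ra1, which binds IL-11, was the most abundant at 5.38 FPKM in the Pkm2-/- library and 6.49 FPKM in the wild type library.

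**Figure D2:**
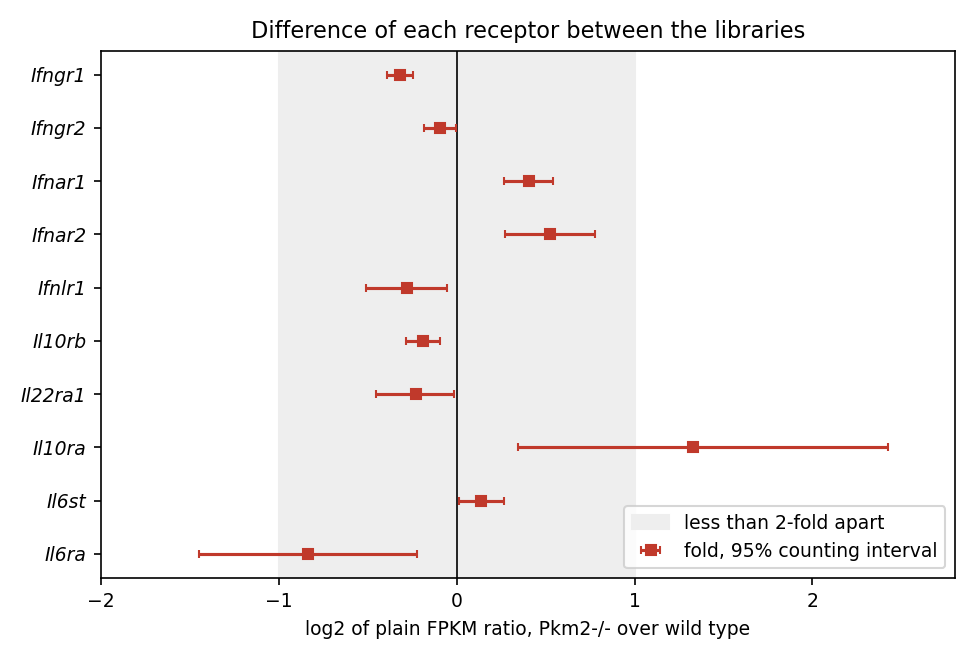
Difference of each receptor between the libraries, as log2 of the plain FPKM ratio of Pkm2-/- over wild type with its 95% counting interval, and the range of less than 2-fold in grey. Ifnar1, Ifnar2, Il6st and Il10ra lie above 0 and the other 6 below, and the intervals of Il10ra and Il6ra are the widest.

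Because a receptor needs both of its chains, the ratio of the chains was compared within each library, which does not depend on how the libraries were scaled. Ifnar1 had 2.44 times the FPKM of Ifnar2 in the Pkm2-/- library (95% counting interval 2.16 to 2.77) and 2.65 times in the wild type library (2.27 to 3.10). Ifngr1 had 2.41 times the FPKM of Ifngr2 in the Pkm2-/- library (2.28 to 2.55) and 2.81 times in the wild type library (2.66 to 2.98). Il10rb exceeded Ifnlr1 8.64-fold in the Pkm2-/- library (7.65 to 9.80) and 8.12-fold in the wild type library (7.23 to 9.13).

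Il10rb exceeded Il22ra1 4.83-fold in the Pkm2-/- library (4.30 to 5.45) and 4.70-fold in the wild type library (4.19 to 5.27). Il10rb exceeded Il10ra 68.1-fold in the Pkm2-/- library (47.6 to 97.7) and 195-fold in the wild type library (110 to 375). Il6st exceeded Il6ra 29.3-fold in the Pkm2-/- library (21.2 to 41.6) and 14.9-fold in the wild type library (11.6 to 19.7). The less abundant chain was the same in both libraries for all 6 pairs, namely Ifnar2, Ifngr2, Ifnlr1, Il22ra1, Il10ra and Il6ra.

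**Figure D3:**
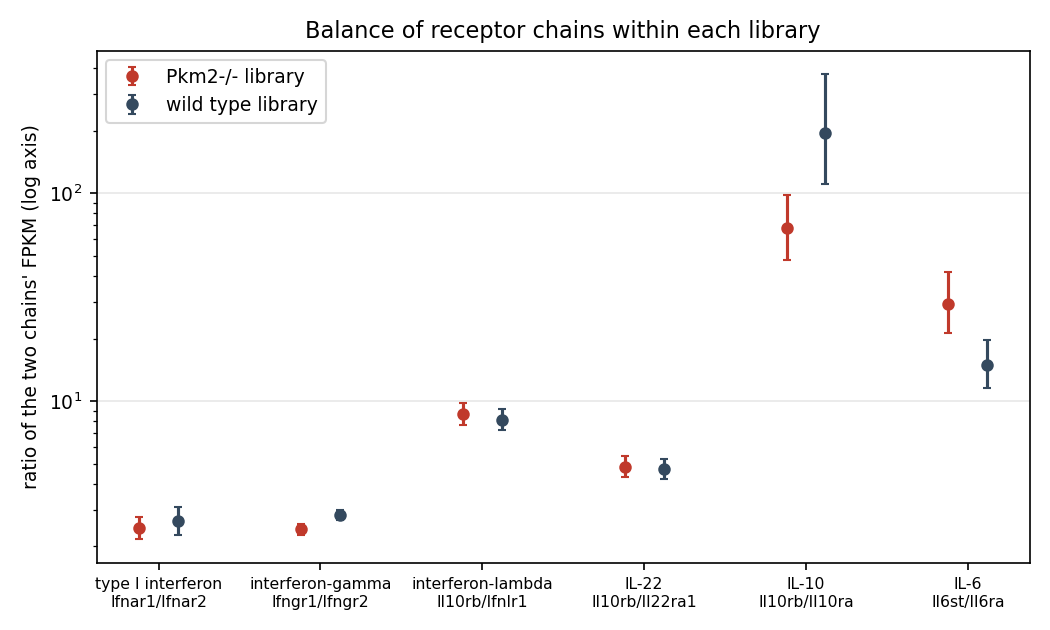
Ratio of the chains of each receptor pair within the Pkm2-/- library and within the wild type library, on a log axis with 95% counting intervals. The type I interferon, interferon-lambda and IL-22 pairs nearly coincide, the interferon-gamma pair is at 2.41 in the Pkm2-/- library and 2.81 in the wild type library, and the pairs with Il10ra or Il6ra differ most.

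Receptor genes that lie beside each other did not always share a sign. Ifnar2, Il10rb, Ifnar1 and Ifngr2 lie in this order on the plus strand within 193 kb of chromosome 16, and of these Ifnar1 and Ifnar2 were higher in the Pkm2-/- library while Il10rb and Ifngr2 were lower. Ifnar2 and Il10rb share 1 locus with Gm21970, so the split of fragments behind their opposite signs is uncertain. Summed, these 3 entries stood at 36.8 FPKM in the Pkm2-/- library and 39.5 FPKM in the wild type library. The next gene past Ifngr2 with a mean of at least 1 FPKM was Tmem50b, at 40.3 FPKM in the Pkm2-/- library and 27.8 FPKM in the wild type library, and the nearest one on the other side was Paxbp1, at 32.8 FPKM in the Pkm2-/- library and 35.4 FPKM in the wild type library. On chromosome 4, Ifnlr1 and Il22ra1 span 65.9 kb and both were lower, with log2 ratios of -0.22 and -0.20, beside Nipal3 at 0.20 and Srsf10 at 0.19.

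Of 23 ligand genes of these receptors and of other gp130 receptors, 2 had a mean of at least 1 FPKM and 11 had no entry in either library, among them Il6, Il22 and 4 interferon-alpha genes. The files hold no zeros and also lack mt-Co1, a gene of nearly every cell, so a missing entry cannot be read as a low level. Ifng, chosen after its values were seen, was at 0.667 FPKM in the Pkm2-/- library, about 16 fragments, and had no entry in the wild type library. It is made mainly by lymphocytes, whose markers were higher in the same library as given above, and their part in its level was not tested. Lif, a ligand of a gp130 receptor, was at 3.89 FPKM in the Pkm2-/- library and 1.93 FPKM in the wild type library, and Ctf1, another, at 1.60 FPKM in the Pkm2-/- library and 2.33 FPKM in the wild type library. These are the 2 ligands above the filter, and neither was 2-fold apart on the log2(FPKM + 1) scale.

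Downstream of the receptors, the Janus kinases Jak1, Jak2 and Tyk2, chosen after their values were seen, were close in both libraries. Jak1 was at 27.7 FPKM in the Pkm2-/- library and 27.3 FPKM in the wild type library, Jak2 at 15.6 FPKM in the Pkm2-/- library and 17.7 FPKM in the wild type library, and Tyk2 at 9.79 FPKM in the Pkm2-/- library and 8.89 FPKM in the wild type library. Of the factors of type I and III interferon signalling, Stat2 was at 47.1 FPKM in the Pkm2-/- library and 67.1 FPKM in the wild type library, and Irf9 at 38.2 FPKM in the Pkm2-/- library and 51.0 FPKM in the wild type library.

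Among the inhibitors of receptor signalling, Socs1, Socs3 and Usp18 were at least 2-fold apart. Socs1, whose protein inhibits Janus kinases and limits interferon-gamma signalling, was at 88.0 FPKM in the Pkm2-/- library and 10.04 FPKM in the wild type library, 8.77-fold higher (95% counting interval 8.02 to 9.59). Socs3, whose protein binds gp130, was at 7.63 FPKM in the Pkm2-/- library and 24.3 FPKM in the wild type library. Usp18, whose protein binds IFNAR2 and restrains type I signalling, was at 20.7 FPKM in the Pkm2-/- library and 51.6 FPKM in the wild type library. Of the 11 negative regulators above the filter, 1 was at least 2-fold higher in the Pkm2-/- library, against 1.42% of all genes, and 2 were at least 2-fold lower, against 1.9%. The other 8 were less than 2-fold apart, and the median log2 ratio of the list was 0.12. Usp18 is counted again below among the genes induced by type I and III interferon, and Socs3 among the IL-22 and STAT3 targets.

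Target genes of the receptors went apart by ligand. Of 20 genes induced mainly by interferon-gamma, 18 were at least 2-fold higher in the Pkm2-/- library, against 1.42% of all genes, and 0 lower, against 1.9%, with a median log2 ratio of 3.35, and the smallest ratios were those of Gbp3, Irgm1 and Irf1 at 0.80, 0.87 and 1.26. That list holds Cd74, H2-Aa and H2-Ab1, class II genes that macrophages, dendritic cells and B cells also express, and markers of these cells and of T cells were higher in the same library, as given above, with their part in these ratios not tested. Of 20 genes induced by type I and III interferon, 17 were at least 2-fold lower and 0 higher, with a median of -1.29, and Isg15 was at 97.1 FPKM in the Pkm2-/- library and 333 FPKM in the wild type library. Of 17 epithelial targets of IL-22 and STAT3 above the filter, 7 were at least 2-fold lower and 0 higher, with a median of -0.81 and Reg3b, an antimicrobial lectin, at 583.5 FPKM in the Pkm2-/- library and 3112 FPKM in the wild type library. Reg3a and Saa2 of that list passed the filter only through the wild type library. Ciita and Cxcl9 of the interferon-gamma list passed it only through the Pkm2-/- library, and all are named for that reason. Beside these target lists, the chains of the receptors had log2 ratios of -0.31 and -0.09 for interferon-gamma, 0.37 and 0.43 for type I interferon, -0.22 and -0.18 for interferon-lambda, and -0.20 and -0.18 for IL-22. The interferon-gamma chains were thus lower, Ifngr2 by only 1.07-fold, beside targets that were higher. Genes induced by type I and III interferon were lower beside type I chains that were higher and interferon-lambda chains that were lower. The IL-22 chains were lower beside IL-22 and STAT3 targets whose median was also lower. The part of receptor levels in the levels of these targets was not tested. These target lists were drawn up with earlier results of the same libraries known, so their directions are a description and not independent evidence.

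**Figure D4:**
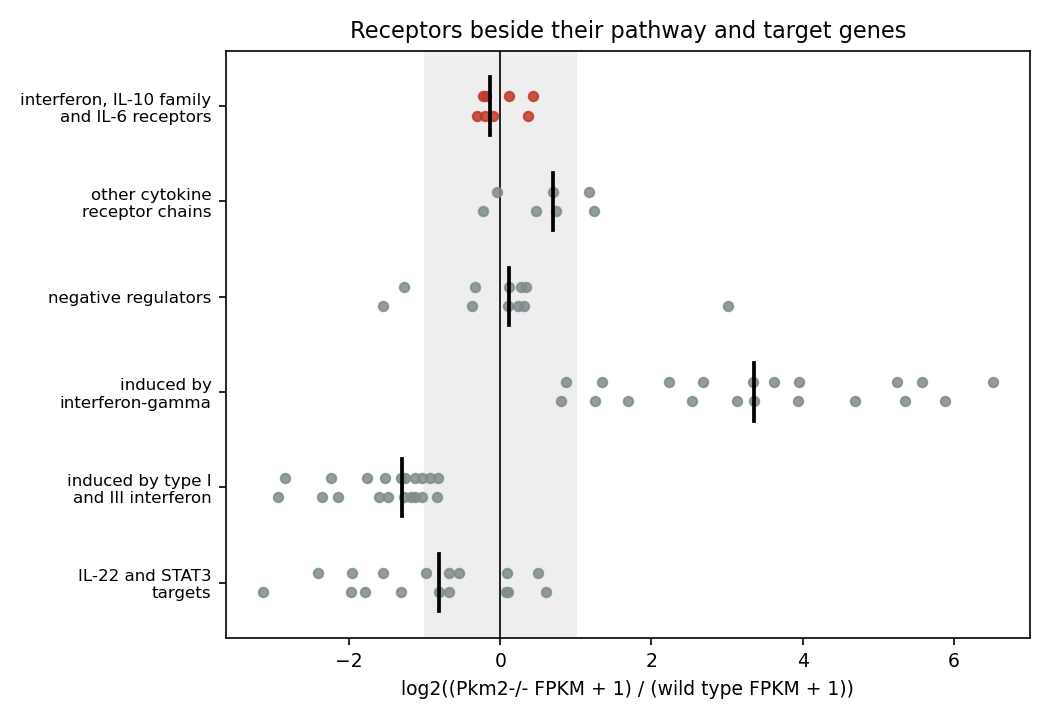
Log2 ratio of Pkm2-/- over wild type on the scale log2(FPKM + 1) for the receptors (red) and for pathway and target lists (grey), 1 point per gene with a mean of at least 1 FPKM, a black line at the median and the range of less than 2-fold shaded. The 8 receptors lie between -0.31 and 0.43, while the medians of the interferon-gamma-induced and the type I and III interferon-induced genes are 3.35 and -1.29.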

How the data were processed

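Messenger RNA of DSS-treated colon epithelial cells was measured in 1 Pkm2-/- and 1 wild type library. The values are FPKM as the authors deposited them. The files carry no header line; the unit follows from the values and from Cufflinks 2.2.1, which the submitters' processing notes name with Bowtie2 2.2.9, TopHat2 2.1.1, Cuffdiff 1.3.0 and 2.2.1 and the build mm8. GENCODE M21 holds 99.4% of the 22384 gene IDs, and 99.96% of the matched IDs overlap their GRCm38 locus, so coordinates are given on GRCm38.

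Entries sharing a symbol were summed and an unlisted gene was set to 0. Log2 ratios used a pseudocount of 1, and counts used a minimum mean of 1 FPKM and a 2-fold threshold. Fragments behind a value were estimated from the lowest cluster of values in genes with 1 transcript over 1.5 kb (0.0493 FPKM times kb in the Pkm2-/- and 0.0536 in the wild type library) and the longest transcript. Fold intervals are Clopper-Pearson and level intervals exact Poisson, both approximate. Fold calls and the depth estimate were tested on simulated data. Python 3.11.15, pandas 2.3.3 and scipy 1.17.1 were used.

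The members and lists were chosen with earlier results of these data known. Named genes were all members and, from each list, at most 3 with the largest and 3 with the smallest ratio, the 2 most abundant, and those listed in neither library; exceptions are stated. Alternatives covered pseudocount, scaling, filter, threshold and mean. Protein sequences were not used here, and 1 item and the counts that need it are not reported here.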

Additional observations from a re-analysis of the deposited data

How the results depend on the processing

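All counts of receptors past 2-fold remained 0 under the 9 alternatives that give such a count, 1.5-fold included. No alternative dropped both the filter and the pseudocount. On plain ratios without a filter, 1 of the 10 receptors was past 2-fold, namely Il10ra, and 2 were past 1.5-fold. Each of the 10 receptors kept the sign of its log2 ratio under 3 scalings. A pseudocount cannot change that sign, so the 3 other pseudocount choices were no check of it. The median of the receptors ran from -0.22 with equal library medians to -0.09 with equal sums without mitochondrial genes, and their mean was -0.012. The scalings moved the median of all genes between -0.01 and 0.10. Il10ra ranged from 0.07 to 1.33 and Il6ra from -0.83 to -0.05, since a pseudocount weighs most on low values.

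Medians of the lists moved as follows. With pseudocounts of 0.1 and 5 and with plain ratios, interferon-gamma-induced genes were at 3.77, 2.68 and 3.82, and IL-22 and STAT3 targets at -1.001, -0.62 and -1.003. With a pseudocount of 5, type I and III interferon-induced genes were at -1.19 and other receptor chains at 0.43. IL-22 and STAT3 targets were at -0.94 with equal sums without mitochondrial genes, -0.74 without a filter and -1.14 above 5 FPKM. Other receptor chains were at 0.10 without a filter and 0.48 above 5 FPKM. Means were -1.54 for type I and III interferon-induced genes and -0.97 for IL-22 and STAT3 targets.

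Of the other receptor chains, 2 were at least 2-fold higher, against 0 with a pseudocount of 5, 0 above 5 FPKM, 4 with equal sums without mitochondrial genes and 4 at 1.5-fold. Of the ligands 1, namely Lif, was higher with plain ratios and at 1.5-fold. Of the IL-22 and STAT3 targets 1 was higher and 11 were lower at 1.5-fold. Counts over all genes moved as well. In the main setting 176 were higher and 236 lower, and at 1.5-fold 554 were higher and 658 lower. The number higher was 85 with a pseudocount of 5 and 111 above 5 FPKM. It was 286 with plain ratios and 326 with equal sums without mitochondrial genes. The cause of these shifts was not tested beyond what each setting changes.

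No paired analysis was possible because each genotype has 1 library. Leaving out a library was not run for the same reason.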

Other observations

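A further 20 cytokine receptor chains were described, among them Il20rb and Il22ra2, which also bind cytokines of the IL-10 family. Above the filter were 7 of the 20 chains. Of these, 5 had a positive log2 ratio, against 58.8% of all genes, and 2 passed 2-fold towards the Pkm2-/- library, against 1.42%, though 0 did so with a pseudocount of 5 or a mean of at least 5 FPKM. The median log2 ratio of the 7 was 0.70, and that of the list without the filter was 0.10. Il21r, the IL-21 receptor of lymphocytes, was at 2.88 FPKM in the Pkm2-/- library and 0.648 FPKM in the wild type library, 4.44-fold higher (95% counting interval 3.00 to 6.87), and passed the filter only through the Pkm2-/- library. Il2rg, the common gamma chain, was at 5.56 FPKM in the Pkm2-/- library and 1.90 FPKM in the wild type library, 2.93-fold higher (95% counting interval 2.19 to 4.01). The most abundant chains were Il13ra1, at 45.7 FPKM in the Pkm2-/- library and 32.6 FPKM in the wild type library, and Il4ra, at 20.6 FPKM in the Pkm2-/- library and 12.3 FPKM in the wild type library, which together form a receptor for IL-4 and IL-13. T cell markers, which summed to 114 FPKM in the Pkm2-/- library and 29.0 FPKM in the wild type library, were higher in the same library, and their part in these differences was not tested.

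Il27ra, the chain that pairs with gp130 to bind IL-27, was below the filter and was chosen after its values were seen, at 1.18 FPKM in the Pkm2-/- library and 0.195 FPKM in the wild type library. Il20rb, which pairs with IL22RA1 to bind IL-20 and IL-24 and was also chosen after its values were seen, was at 0.490 FPKM in the Pkm2-/- library and 1.18 FPKM in the wild type library. Stromal signal was low beside the epithelial markers: fibroblast markers summed to 15.1 FPKM in the Pkm2-/- library and 13.4 FPKM in the wild type library, and endothelial markers to 1.68 FPKM in the Pkm2-/- library and 2.04 FPKM in the wild type library. Only 3 of the 8 fibroblast markers with an entry were higher in the Pkm2-/- library. Vim, the most abundant, was at 9.76 FPKM there and 6.80 FPKM in the wild type library. Dcn was at 0.870 FPKM in the Pkm2-/- library and 2.65 FPKM in the wild type library.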
